A study of Homo sapiens with 16 samples.

Results

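SK-N-SH cells, grown from a human neuroblastoma, are known to form mixed cultures of adrenergic neuroblasts and of flat mesenchymal cells that adhere to the dish. Gene expression in them 6 h after the addition of 10 µM risperidone was set against untreated cells, with 4 arrays in each group out of the 16 arrays of the series. The other 8 arrays came from 24 h and 48 h of exposure to the same dose. Total RNA was hybridised to Human Genome U219 arrays. All cells had grown for 48 h to 95% confluence before exposure. The control samples are labelled untreated, whereas the treatment protocol gives controls the solvent DMSO, at a maximum of 1% of the volume. No harvest time is given for them, so time in culture and exposure cannot be told apart. The arrays are called biological replicates without a description of separate cultures, and p-values therefore measure the spread between these samples.

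Each of 18239 genes was represented by 1 probe set, the one with the highest mean over the 16 arrays, and the 13680 genes with a mean of at least 3.65 were tested. Levels are log2 values after robust multi-array averaging (RMA), so a difference of 1 is 2-fold. Differences are the 6 h mean minus the untreated mean with the standard error (SE) from limma, and a gene was called higher or lower at a Benjamini-Hochberg adjusted p under 0.05 over all genes tested. Array replicates are listed in the order 1 to 4. Of the genes named below that were called, 158 had other tested probe sets, and for 27 of these every other one showed less than 50% of the change of the probe set used, or the opposite sign. The values of the other probe sets are then given beside the gene, and the size of its change is uncertain. For 68 of the 158, these 27 included, at least 1 other probe set lay under that limit of 50%. Such ranges are not all given below, as for MAPT (0.24 to 1.74), ABCG1 (0.195 to 1.38) and PLAT (-3.82 to -0.34).

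Risperidone is an antipsychotic drug that blocks dopamine D2 and serotonin 2A receptors and also binds adrenergic and histamine receptors. Substrate-adherent cells hold to the dish through integrins, which connect the matrix outside the cell to actin filaments inside, and their membrane carries many flask-shaped invaginations, the caveolae. Neuroblasts of the sympathetic lineage instead carry the machinery of neurite growth, vesicle acidification and catecholamine storage.

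The untreated and 6 h arrays were clearly apart. Within the groups, pairs of arrays correlated at 0.996 to 0.9987 over the genes tested, and between the groups at 0.9695 to 0.9776. The actin control probe sets differed by 1.55 to 1.94 between the 3′ and the 5′ end in untreated arrays and by 1.98 to 2.41 at 6 h (exact two-sided permutation test, p = 0.0286, the smallest that 70 arrangements allow, adjusted p = 0.157 over 11 control transcripts). The same difference for GAPDH was 0.08 to 0.18 and 0.07 to 0.11 (exact p = 0.229). The poly-A RNAs added to the samples, dap, lys, phe and thr, read higher at 6 h by 0.133, 0.213, 0.28 and 0.152 (exact p = 0.229, 0.0571, 0.0571 and 0.257). The hybridisation controls Ec-bioB, Ec-bioC, Ec-bioD and P1-cre differed by 0.265, 0.182, 0.0975 and -0.0475 (exact p = 0.0571, 0.143, 0.229 and 0.257). Many small rises given below are of similar size. The part of the actin difference and of these control differences in the results below was not tested. Of the adrenergic markers fixed for the cell type check, 11 of 11 on the array were higher, against 36.6% of all genes tested. Apart from DBH (1.16) their differences were small, 0.12 to 0.472, and the split of small changes depends on scaling, as given below. Their summed level was 15.1 to 15.2 and then 15.5. All 10 mesenchymal markers were lower, against 16.7% of all genes, with differences of -5.09 to -1.23. The summed level of these 10 went from 13.9 to 14.1 in untreated arrays to 12.2 to 12.4 at 6 h. Of 8 fibroblast and pericyte markers 6 were lower, with a summed level of 13.4 to 13.5 and then 11.6 to 12. PDGFRA and PDGFRB, defining markers of that list, were not called, with differences of 0.05 ± 0.07 and -0.00 ± 0.06. Of the tested markers of endothelium (4), epithelium (3) and skeletal muscle (3), 1 was called, KDR (0.21 ± 0.06), and the highest group mean among them was 5.39. Of 6 leukocyte markers 4 were too dim to be tested, and CD68, which cells other than leukocytes also express, was lower, with a mean of 5.94 and then 4.44 (other probe set -0.43). The part of these marker changes in the lists described below was not tested. In bulk samples fewer cells of a type and less RNA per cell cannot be told apart.

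A total of 7291 genes (53.3% of those tested) were called, 5008 higher (36.6%) and 2283 lower (16.7%). Most calls in both directions were small, and the large changes were mostly falls. At least 1.5-fold changed were 606 of the higher and 922 of the lower genes. The median difference was 0.30 among the higher and -0.45 among the lower genes. At least 2-fold higher were 81 genes (0.592%) and at least 2-fold lower 572 (4.18%). At least 8-fold, 0 genes were higher and 97 lower. The same settings with cyclic loess normalization gave 3151 higher and 3223 lower genes, so that the split of small changes depends on scaling, and 7961 genes had an unadjusted p under 0.05. In 45.7% of the genes tested the 4 arrays at 6 h lay all above or all below the untreated ones.

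Large falls were spread over genes of middle and high level. The tested genes were ranked by untreated mean and cut into 4 bins of about equal size. In the lowest bin (up to 4.85) 17 genes fell 2-fold or more, where the bottom of the scale limits a fall. In the bins above it the numbers were 250, 158 and 147. Of the 97 genes at least 8-fold lower, 22 had a 6 h mean under 4, and their folds are limited by that bottom. The median level of the 97 genes was 9, 9.06, 9.17 and 9.06 in the untreated arrays and 5.53, 5.24, 4.94 and 4.98 at 6 h. Replicate 1 was the highest of the 6 h arrays for 84 of these genes and replicate 3 the lowest for 63. Of the 81 genes at least 2-fold higher 9, 52, 16 and 4 lay in the bins from low to high. The second bin thus held most of the large rises and also the most large falls.

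**Figure D1:**
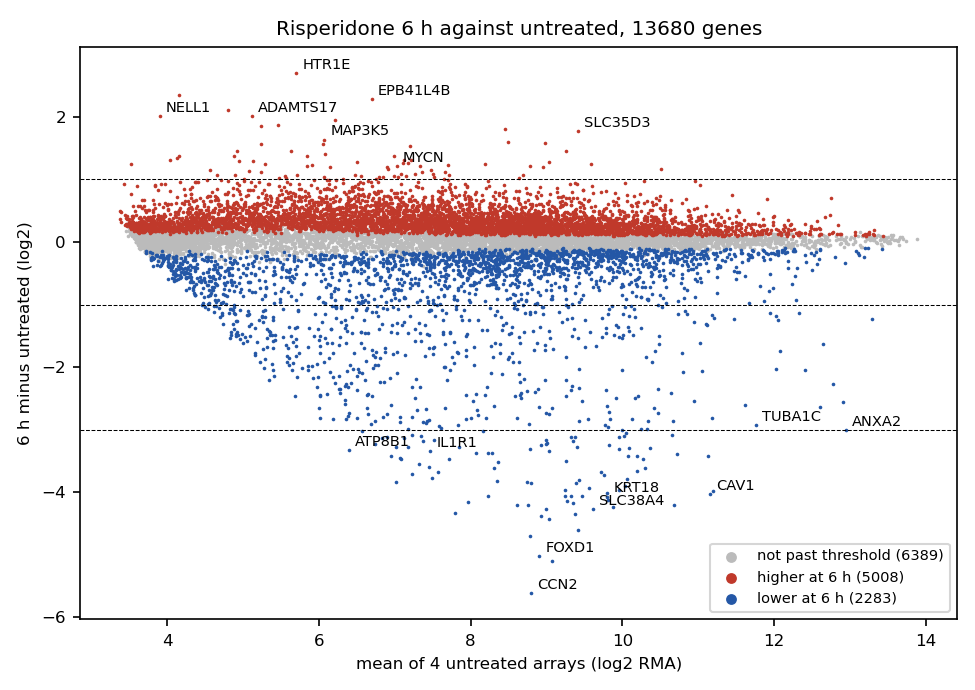
Each point is 1 of the 13680 genes, with the mean of the 4 untreated arrays on the x axis (log2 RMA) and the 6 h minus untreated difference (log2) on the y axis. Red points are the 5008 genes called higher, blue points the 2283 called lower and grey points the rest, and dashed lines mark 2-fold in both directions and 8-fold lower. Blue points reach far below the lowest line, while 0 genes were 8-fold higher.

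Promoter sequences are shown, as examples, for 4 genes of large change whose start region holds a motif of a known family of factors. They come from RefSeq (GRCh38.p14), run 5′ to 3′ on the strand of the gene up to the base before its start, and carry the motif in capitals. CCN2 encodes a secreted matrix-associated protein and THBS1 the adhesive matrix glycoprotein thrombospondin. Both have GGAATG, the core bound by TEAD factors, the DNA-binding partners of the coactivators YAP1 and WWTR1. TAP1 encodes a subunit of the peptide transporter for antigen presentation and has a match to the motif of NF-kappaB. CLSTN2, a synaptic membrane protein of the calsyntenin family, has TGACGTCA, the cAMP response element. The regions are chr6:131951373-131951622 on the minus strand for CCN2, chr15:39580929-39581078 on the plus strand for THBS1, chr6:32853705-32853854 on the minus strand for TAP1 and chr3:139935035-139935184 on the plus strand for CLSTN2.
CCN2: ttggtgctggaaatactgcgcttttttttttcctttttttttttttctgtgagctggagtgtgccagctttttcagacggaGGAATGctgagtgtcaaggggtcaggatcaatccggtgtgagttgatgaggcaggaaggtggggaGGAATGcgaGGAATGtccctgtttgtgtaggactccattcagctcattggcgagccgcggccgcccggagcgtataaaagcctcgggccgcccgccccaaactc
THBS1: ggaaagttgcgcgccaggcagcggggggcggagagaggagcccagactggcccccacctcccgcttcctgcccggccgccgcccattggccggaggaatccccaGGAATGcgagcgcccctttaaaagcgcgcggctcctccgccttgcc
TAP1: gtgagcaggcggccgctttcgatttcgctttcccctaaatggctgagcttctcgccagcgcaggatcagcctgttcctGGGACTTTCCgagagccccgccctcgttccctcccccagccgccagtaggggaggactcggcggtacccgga
CLSTN2: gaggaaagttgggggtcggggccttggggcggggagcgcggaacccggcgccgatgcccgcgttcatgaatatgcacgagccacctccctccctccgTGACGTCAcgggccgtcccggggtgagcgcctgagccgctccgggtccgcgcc
The CCN2 region holds 3 GGAATG matches and the THBS1 region 1. CCN2 fell by 5.62 ± 0.17, THBS1 fell by 4.14 ± 0.15, TAP1 fell by 2.91 ± 0.09 (other probe set -1.08) and CLSTN2 rose by 1.37 ± 0.07.

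Over the window from 250 bases before to 50 after the start, searched on both strands, GGAATG was found in 13.4% of the 194 promoters available for genes at least 4-fold lower. Its share was 13.6% of the 59 promoters of genes at least 2-fold higher and 10.9% of the 11147 promoters of all genes tested. TGANTCA, the AP-1 motif, was found in 17 of the 194 (8.76%), against 5.08% in the genes that rose and 4.65% overall. TGACGTCA was in 1.55%, 1.69% and 3.14%, and CLSTN2 was the 1 match among the 59. The NF-kappaB motif was in 3.09% of the 4-fold lower genes, in 0 of the 59 and in 1.95% of all. These matches describe the letters of the window and show no binding.

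Among the 25 largest falls were an amino acid transporter, a keratin and a retinol dehydrogenase beside the matrix and mesenchymal genes. SLC38A4, a sodium-coupled neutral amino acid transporter, read 9.54, 9.73, 9.68 and 9.48 in the untreated arrays and 5.59, 5.43, 4.98 and 5.32 at 6 h. It fell by 4.28 ± 0.14 (adjusted p = 1.83e-13), a 19.4-fold difference, and every 6 h array lay below every untreated one. KRT18, the intermediate filament partner of keratin 8 in simple epithelia, read 9.66, 9.75, 9.91 and 9.87 untreated and 6.1, 5.9, 5.3 and 5.6 at 6 h. It fell by 4.07 ± 0.15, its other probe set gave -4.42, and the epithelial marker EPCAM was not called (-0.17 ± 0.11). RDH10, which oxidises retinol on the path to retinoic acid, had levels of 9.04, 9.24, 9.45 and 9.25 and then 5.53, 5.24, 4.98 and 4.98. It fell by 4.06 ± 0.12, and its 2 other tested probe sets gave -3.66 to -2.41.

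IGF2BP2, which binds mRNAs such as that of IGF2, fell by 4.20 ± 0.14, and its single tested probe set read 8.38, 8.69, 8.73 and 8.63 untreated against 4.9, 4.22, 4.21 and 4.3. The hyaluronan synthase HAS2 fell by 4.34 ± 0.09 and ITGA6, an integrin subunit of laminin receptors, fell by 4.21 ± 0.17. PHLDA1, a pleckstrin homology domain protein, fell by 4.05 ± 0.08 and ended at a 6 h mean of 4.18, near the bottom of the table. Other genes named here ended lower still, among them CCN2 (3.175), HAS2 (3.45), ATP8B1 (3.06), TWIST2 (3.22), DIRAS3 (3.515), SLC25A43 (3.52) and ABCA1 (3.50). The bottom of the scale limits the size of such falls. MLPH, known from melanosome transport, fell by 4.24 ± 0.14, with a smaller fall on its 2 other probe sets (-1.76 to -1.63). The melanocyte markers did not share 1 direction, with MITF at -0.92 ± 0.08 and PMEL at 0.33 ± 0.07. PHLDB2, a protein of the cell cortex beside adhesions, fell by 4.06 ± 0.18. For TGM2, a transglutaminase that cross-links proteins, the probe set used fell by 4.12 ± 0.16, but its 2 other tested probe sets gave only -0.30 to -0.04.

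The largest rises took in receptors, transporters and cell surface proteins of neurons. HTR1E, a serotonin receptor that couples to inhibitory G proteins, read 5.63, 5.81, 5.75 and 5.62 untreated and 8.39, 8.35, 8.3 and 8.58 at 6 h. It rose by 2.70 ± 0.06 (adjusted p = 5.69e-15), a 6.51-fold difference and the largest rise of all genes tested. NPY2R, a receptor for neuropeptide Y, came next with 4.08, 4.4, 4.21 and 3.93 and 6.4, 6.58, 6.63 and 6.44, and rose by 2.36 ± 0.10. EPB41L4B, a FERM domain protein of the band 4.1 family, went from 6.66, 6.76, 6.72 and 6.63 to 8.93, 8.99, 9 and 8.98, and the 2 tested probe sets not used gave 0.71 to 2.02. Its rise of 2.28 ± 0.04 had one of the smallest errors of the list, as the arrays of each group lay close together.

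SLC1A1, the neuronal glutamate and cysteine carrier, rose by 2.10 ± 0.10 on the probe set used, and the other gave 0.28. The secreted protein NELL1 rose by 2.01 ± 0.09 and the matrix protease ADAMTS17 rose by 2.01 ± 0.07. NECAB1, a neuronal calcium-binding protein, rose by 1.95 ± 0.07. The synaptic organiser CBLN2 rose by 1.87 ± 0.09, with 0.29 on its other probe set, and the potassium channel KCNH1 rose by 1.86 ± 0.08. SLC18A1, the vesicular monoamine transporter of chromaffin cells, was already high and went from 8.59, 8.42, 8.38 and 8.42 to 10.19, 10.26, 10.27 and 10.29. SLC35D3, of the nucleotide sugar transporter family, read 9.61, 9.62, 9.09 and 9.33 and then 11.15, 11.21, 11.19 and 11.18, and its untreated arrays lay further apart than those at 6 h. Of the contactins, neural adhesion proteins, 2 were among the 25 largest rises, CNTN1 by 1.58 ± 0.07 and CNTN4 by 1.38 ± 0.08, beside the contactin-associated CNTNAP4 by 1.38 ± 0.11.

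Kinases, phosphatases and enzymes stood among the largest rises too. MAP3K5, the stress-responsive kinase ASK1, read 5.76, 6.18, 6.23 and 6.12 untreated and 7.72, 7.61, 7.7 and 7.81 at 6 h and rose by 1.64 ± 0.09, the only one of 37 tested MAP kinase cascade kinases to change 2-fold. PPP2R2C, a brain regulatory subunit of protein phosphatase 2A, went from 7.18, 7.19, 7.23 and 7.18 to 8.74, 8.72, 8.72 and 8.76. HS6ST2, which adds 6-O-sulphate to heparan sulphate, rose by 1.60 ± 0.05. DPP6, an auxiliary subunit of A-type potassium channels, rose by 1.42 ± 0.06. Also among the 25 were SYT17 (1.56 ± 0.11), SORBS2 (1.57 ± 0.10), SPAG4 (1.46 ± 0.10) and TMEM130 (1.45 ± 0.08). CHRFAM7A (1.37 ± 0.10) shares sequence with CHRNA7, and its value is uncertain for that reason.

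**Figure D2:**
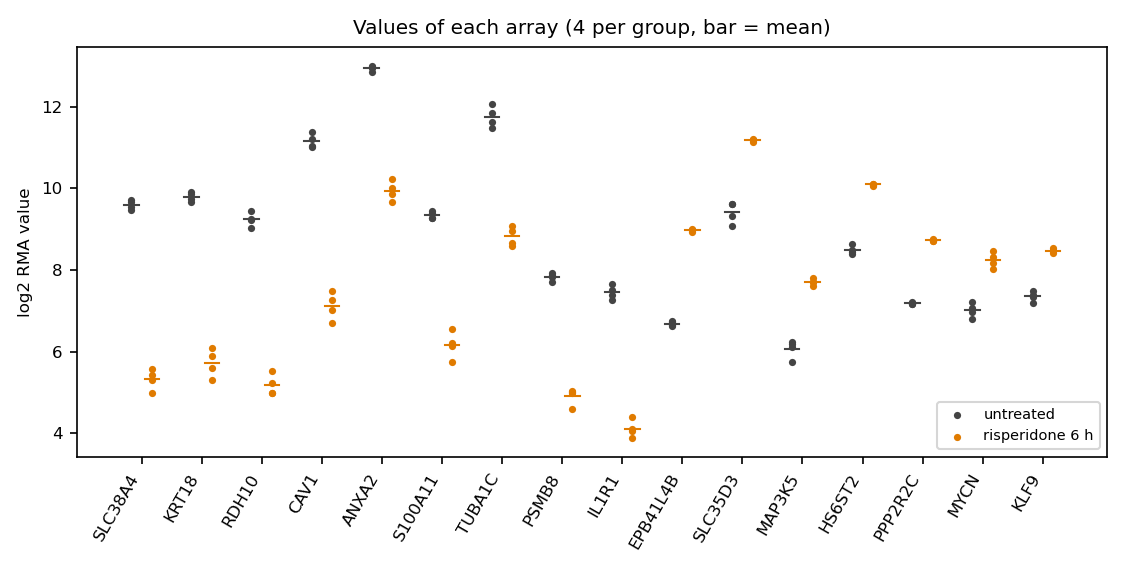
Points are the log2 RMA values of single arrays, 4 untreated (grey) and 4 at 6 h (orange) for each gene, with a bar at the group mean. For the 9 genes on the left all 6 h points lie below the untreated ones, and for the 7 on the right all lie above.

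Lists of gene families, described by counts beside the share of all genes called (36.6% higher, 16.7% lower, median 0.0925), showed where the falls were dense. Lists described below with more members lower than higher kept that order under cyclic loess unless stated. The medians of 32 of the 94 lists changed sign under cyclic loess. Annexins, calcium-dependent phospholipid-binding proteins of membranes, had the lowest median, -1.24, with 0 of 8 tested higher and 7 lower. ANXA1 read 10.52, 10.66, 10.94 and 10.77 untreated and 7.66, 7.56, 7 and 7.11 at 6 h and fell by 3.39 ± 0.13. ANXA2, which forms a complex with S100A10, was among the most abundant signals of the array at 12.95, 12.98, 12.86 and 13.01 and fell by 3.00 ± 0.10 to 10.24, 10.01, 9.68 and 9.86. ANXA3 fell by 2.73 ± 0.16. Both parts of that complex were lower, since S100A10 fell by 2.42 ± 0.10.

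Of 11 tested S100 proteins, small calcium sensors, 8 were lower and 2 higher, with a median of -1.19. S100A16 went from 9.28, 9.43, 9.44 and 9.48 to 6.51, 6.21, 5.66 and 6.13 and S100A11 from 9.27, 9.45, 9.4 and 9.27 to 6.55, 6.22, 5.74 and 6.14. The members higher at 6 h were S100B (0.60 ± 0.05), a marker of glia, and S100A1 (0.19 ± 0.06). The call of S100A1 was lost without untreated replicate 4 (difference 0.157) or 6 h replicate 1 (difference 0.178). Other glial markers were at or near the bottom of the scale, with SOX10 at a mean of 3.74 untreated and GFAP at 3.63, neither called. Among 6 galectins, lectins for galactose-bearing glycans, 4 were lower and 1 higher. LGALS1, high in untreated arrays at 12.7, fell by 1.63 ± 0.06, and LGALS3 fell by 1.33 ± 0.05.

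Caveolae proteins gave 6 lower and 1 higher of 8 tested, with a median of -0.94. CAV1, a coat protein, read 11.04, 11.21, 11.38 and 11.01 and then 7.49, 7.27, 6.71 and 7.03, and so fell by 4.04 ± 0.15, and its 3 other probe sets gave -4.43 to -4.29. CAV2 went from 9.85, 10, 10.3 and 10.11 to 6.79, 6.49, 5.81 and 6, and CAVIN1, which stabilises the coat, fell by 2.64 ± 0.08. Among 27 tetraspanins as many were higher (8) as lower (8), with 6 and 9 under cyclic loess. TSPAN8 fell by 3.27 ± 0.12 and CD82 fell by 1.28 ± 0.07, while TSPAN7, a tetraspanin of neurons, rose by 1.31 ± 0.05.

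PDZ-LIM, four-and-a-half LIM and focal adhesion proteins, which tie integrins to actin, had 22 of 29 lower and 3 higher (median -0.415). TNS3, a tensin that binds integrin tails, fell by 4.06 ± 0.17, zyxin (ZYX) fell by 2.20 ± 0.11 and PDLIM1 fell by 2.09 ± 0.09. The member that rose most was TES, a LIM protein of adhesions, by 0.80 ± 0.06.

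Microtubule genes split. Of 41 tested tubulins and microtubule-associated proteins 16 were higher and 9 lower (12 and 10 under cyclic loess), with a median of 0.0775, near that of all genes. TUBA1C read 11.48, 11.86, 12.06 and 11.63 untreated and 9.08, 8.96, 8.6 and 8.66 at 6 h, and so fell by 2.93 ± 0.12, and TUBB6 fell by 2.82 ± 0.09. The 3 members that rose 2-fold or more were tau (MAPT, 1.20 ± 0.06), which binds microtubules in axons, MAP6 (1.07 ± 0.07) and STMN4 (1.02 ± 0.05). Among motors, the axonal kinesin KIF1A rose by 0.87 ± 0.06, KIF1C fell by 1.04 ± 0.07, the dynein light chain DYNLT3 fell by 2.35 ± 0.07 and the filopodial myosin MYO10 fell by 2.49 ± 0.11.

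The lists of matrix enzymes held more lower than higher members. Of 23 lysyl oxidases and collagen-modifying enzymes 15 were lower and 1 higher (median -0.338). LOXL1, which cross-links elastin and collagen, read 7.05, 7.16, 7.46 and 7.25 and then 4.3, 4.17, 4 and 4.09. PCOLCE2, an enhancer of procollagen processing, fell by 2.59 ± 0.11, and PLOD1, a lysyl hydroxylase, rose by 0.22 ± 0.06. Among 37 enzymes of proteoglycan chain synthesis 17 were lower and 7 higher, with HS3ST3B1 (-1.82 ± 0.12) and CHST2 (-1.48 ± 0.08) opposite to HS6ST2, given above, and CHST8 (0.89 ± 0.10).

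Complement, coagulation and plasminogen factors had 16 of 23 lower and 2 higher (median -0.722). Both activators of plasminogen fell. The tissue-type activator PLAT read 10.27, 10.22, 10.21 and 10.09 untreated and 6.97, 6.43, 6.03 and 6.7 at 6 h and fell by 3.67 ± 0.14. The urokinase gene PLAU went from 9.47, 9.92, 10.31 and 10.13 to 6.91, 6.75, 6.36 and 6.58. SERPINE2, an inhibitor of both proteases and of thrombin, fell by 3.01 ± 0.12. The 2 members called higher changed little, protein S (PROS1) by 0.29 ± 0.05 and complement C7 by 0.13 ± 0.05, the latter at 12.6 in untreated arrays. The call of C7 was lost without untreated replicate 1 (difference 0.0867), untreated replicate 2 (difference 0.127) or 6 h replicate 1 (difference 0.116).

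**Figure D3:**
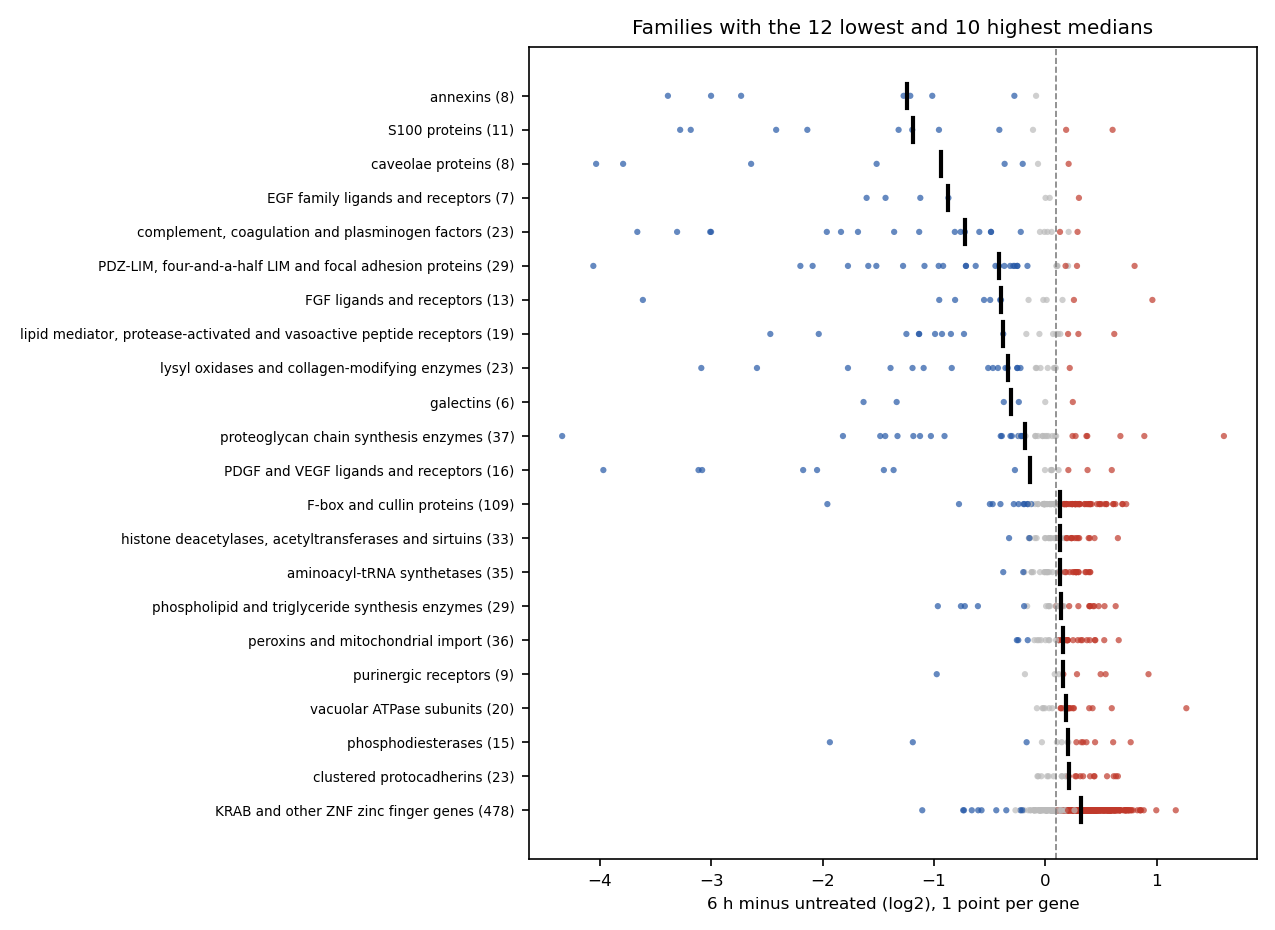
Each row is a gene family with its number of tested genes in brackets, points are its genes (6 h minus untreated, log2; red higher, blue lower, grey not called) and the black bar is the family median. The dashed line is the median of all 13680 genes, 0.0925. The 12 families at the top have the lowest medians, from -1.24 for annexins, and the 10 at the bottom the highest, up to 0.321 for ZNF zinc finger genes.

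Growth factor families held members that moved in opposite directions. Among PDGF and VEGF ligands and receptors 8 of 16 were lower and 3 higher. VEGFC, a ligand of lymphatic growth, read 9.69, 9.9, 10.24 and 10 and then 6.44, 6.03, 5.65 and 5.83 and fell by 3.97 ± 0.16. PDGFC fell by 3.08 ± 0.14. In contrast VEGFA, the main angiogenic ligand, went from 10.37, 10.51, 10.43 and 10.31 to 11.03, 10.96, 10.95 and 11.07, and VEGFB rose by 0.38 ± 0.06. Of 13 FGF ligands and receptors 7 were lower and 2 higher. FGF5 fell by 3.62 ± 0.12, FGF2 fell by 0.95 ± 0.09 and FGF1 fell by 0.81 ± 0.13, while FGF11, which stays inside cells, rose by 0.96 ± 0.09 (other probe sets 0.15 to 0.28). Of 7 tested EGF family genes 4 were lower. The receptor ERBB4 fell by 1.60 ± 0.12, and its ligands NRG1 and HBEGF gave -1.44 ± 0.10 and -1.12 ± 0.11. The other tested probe set of HBEGF gave -0.05.

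Guidance cues and insulin-like growth factor proteins gave similar mixtures. Of 29 semaphorins and plexins 9 were lower and 5 higher. The secreted SEMA3D fell by 2.93 ± 0.16 and SEMA3A fell by 2.80 ± 0.15, and SEMA4D, a membrane-bound member, rose by 0.77 ± 0.07 (other probe set 0.35). SEMA6D rose by 0.93 ± 0.05 on the probe set used, while its other one gave -0.07. Of 17 ephrins and Eph receptors 6 were higher and 4 lower (4 and 4 under cyclic loess), among them EFNB3 (0.59 ± 0.05) and EPHA2 (-1.37 ± 0.07, other probe set -0.47). IGFBP6 fell by 1.82 ± 0.09 and IGFBP3 fell by 1.45 ± 0.19, against a rise of 0.43 ± 0.05 for IGFBPL1.

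Receptor families differed in their counts. In the TNF receptor superfamily 8 of 17 were lower and 1 higher, the nerve growth factor receptor NGFR (0.24 ± 0.08). The call of NGFR was lost without untreated replicate 1 (difference 0.2) or 6 h replicate 3 (difference 0.213). TNFRSF12A, the receptor of TWEAK, read 10.12, 10.39, 10.48 and 10.66 and then 7.93, 7.92, 7.46 and 7.72. The death receptor FAS fell by 2.23 ± 0.12. Of 26 tested interleukin and gp130 cytokine receptors 5 were higher and 7 lower, with a median of 0.00625, and 1 and 8 under cyclic loess. IL1R1, the signalling receptor of interleukin 1, fell by 3.34 ± 0.15 from 7.28, 7.4, 7.52 and 7.65 to 4.41, 4.12, 3.89 and 4.06, and IL13RA1 fell by 1.68 ± 0.06. IL20RA, a subunit of interleukin 20 receptors, rose by 1.26 ± 0.06, the only 2-fold rise of that list. Of 19 lipid mediator, protease-activated and vasoactive peptide receptors 10 were lower and 3 higher (median -0.377). The bradykinin receptor BDKRB1 fell by 2.47 ± 0.13, S1PR3 fell by 1.25 ± 0.06 and F2RL2 fell by 2.04 ± 0.12, and LPAR2 rose by 0.62 ± 0.10. Of only 9 tested purinergic receptors 5 were higher and 1 lower, against 36.6% and 16.7% of all genes. Under cyclic loess 4 were higher and 2 lower, with a median of 0.0431. P2RY6 rose most (0.93 ± 0.10), while the adenosine receptor ADORA2B fell by 0.97 ± 0.11.

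Of 25 G protein subunits 12 were higher and 3 lower (8 and 4 under cyclic loess). GNAO1, the most abundant G protein alpha subunit of neurons, rose by 0.73 ± 0.12, GNG8 rose by 0.59 ± 0.05 and GNAZ rose by 0.59 ± 0.05 (other probe set of GNAZ 0.17), while GNG12 fell by 1.07 ± 0.07. Of 15 phosphodiesterases 7 were higher and 3 lower, and 2 genes of the same cAMP-specific subfamily gave 0.77 ± 0.06 for PDE4B and -1.94 ± 0.12 for PDE4A. The other tested probe set of PDE4A gave -0.15 and that of PDE4B 0.51. Among 27 protein tyrosine phosphatases the receptor-type PTPRK read 9.03, 9.02, 8.99 and 8.93 and then 6.26, 5.88, 5.32 and 5.58, and PTPRR fell by 2.04 ± 0.12. PTPRU and PTPRN2, the latter of secretory vesicles, rose by 0.96 ± 0.07 and 0.81 ± 0.05. The feedback inhibitor SPRY1 fell by 1.45 ± 0.09 and the ERK phosphatase DUSP5 fell by 1.08 ± 0.12. PLCB1 fell by 1.37 ± 0.08, and the inositol trisphosphate receptors ITPR1 and ITPR2 gave 0.86 ± 0.06 and -0.96 ± 0.10. Of 23 genes of adenylyl cyclases, cAMP-dependent kinase and its anchors 18 were not called.

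**Figure D4:**
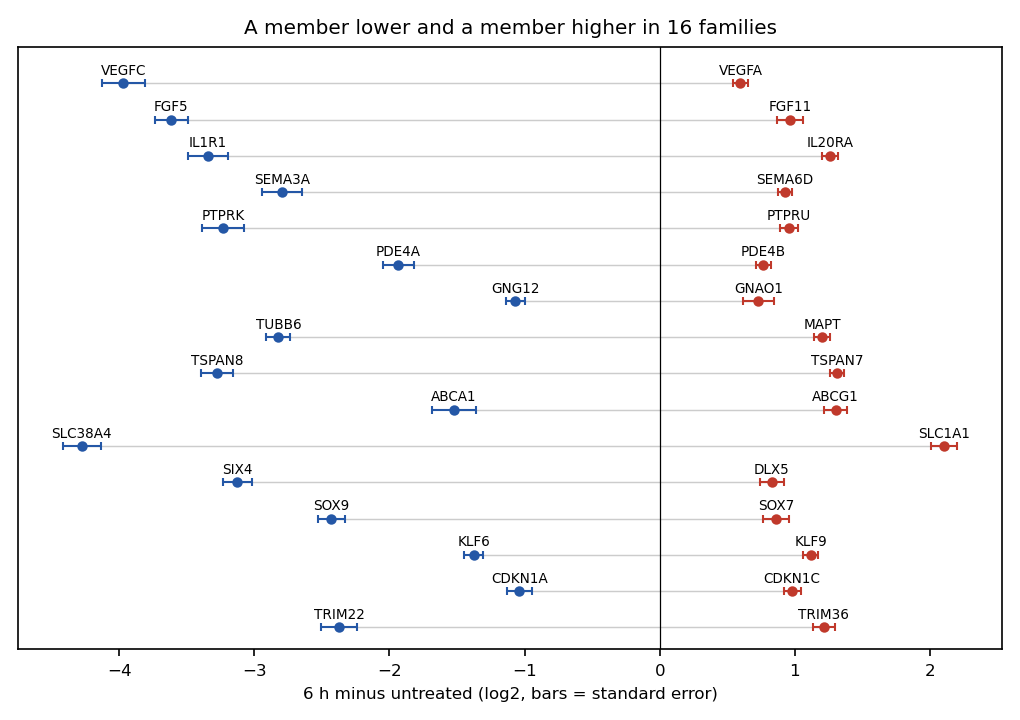
For 16 families, a member lower at 6 h (blue) and a member higher (red) are joined by a line, with the 6 h minus untreated difference (log2) on the x axis and the standard error from limma (n = 4 arrays per group) as bars. The pairs were picked after their values were seen, and each gene is drawn from 1 probe set. Every other tested probe set of FGF11, PDE4A, SEMA6D, SLC1A1, SOX9 and TRIM22 gave less than 50% of the change drawn or the opposite sign. For further genes drawn, such as MAPT, ABCG1 and SOX7, at least 1 other probe set did. The pairs range from GNG12 and GNAO1, about 1 unit or less from 0, to SLC38A4 and SLC1A1.

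Genes of antigen processing that lie next to each other were lower together. Along the tested genes in chromosomal order there were 67 neighbouring pairs both at least 2-fold lower and 2 both at least 2-fold higher, out of 13643 pairs. There were 10 runs of 3 or more, all lower. Of all genes tested 4.18% were at least 2-fold lower and 0.592% at least 2-fold higher, so lower pairs are the more frequent by position alone. Whether the pairs and runs exceed that was not tested, and untested genes can lie between such neighbours. A run of 4 was TAP2, PSMB8, TAP1 and PSMB9 in the class II region of the major histocompatibility complex, which encode the peptide transporter and 2 subunits of the immunoproteasome. PSMB8 read 7.87, 7.93, 7.84 and 7.7 and then 4.99, 5.04, 4.6 and 5.01. TAP1 went from 6.51, 6.61, 6.82 and 6.82 to 3.74, 3.84, 3.93 and 3.61 and TAP2 from 8.35, 8.38, 8.53 and 8.47 to 7.15, 7.11, 6.98 and 7.21. PSMB9 fell by 2.54 ± 0.13, although its other probe sets reached from -1.93 to 0.10. The other run of 4 was ELL2, CAST, ERAP1 and ERAP2, of which the last 2 trim peptides for class I molecules. ERAP1 fell by 1.46 ± 0.09 (other probe sets -0.60 to -0.38) and ERAP2 fell by 2.75 ± 0.17. B2M, the light chain of class I, fell by 0.33 ± 0.05.

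The immunoproteasome genes stood apart within their family by size. Of 43 tested proteasome genes 8 were higher and 9 lower, with a median of -0.01 (1 and 17 under cyclic loess), and PSMB8 and PSMB9 were the only ones 2-fold changed. Of 46 tested TRIM genes 13 were higher and 12 lower (7 and 15 under cyclic loess). Among those lower were TRIM5 (-2.41 ± 0.12) and the interferon-inducible TRIM22 (-2.37 ± 0.14), whose 2 other probe sets gave -0.41 to -0.05. TRIM55, a muscle sarcomere protein by its known role, fell by 3.13 ± 0.13, while TRIM36 rose by 1.22 ± 0.08. Of 24 tested BCL-2 family and caspase genes 8 were higher and 8 lower (6 and 10 under cyclic loess). CASP4, the inflammatory caspase, fell by 1.60 ± 0.10 on the probe set used and gave -0.32 on the other. CASP8, the initiator below FAS, fell by 2.86 ± 0.10 on the probe set used, with -0.11 on the other. The SOCS3 feedback gene fell by 0.95 ± 0.15 and the interferon-inducible USP18 fell by 0.93 ± 0.11.

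Further runs took in genes of several families above. CAV2, CAV1 and MET, the receptor of hepatocyte growth factor, lie side by side, and MET went from 8.71, 9.06, 9.24 and 8.93 to 6.89, 6.85, 6.75 and 6.61. S100A2, S100A16 and S100A13 form another run, and so do PTPRK, ARHGAP18 and TMEM244. In the run GNG12, DIRAS3 and WLS, the imprinted RAS relative DIRAS3 fell by 2.84 ± 0.13 and WLS, which carries Wnt proteins to the surface, fell by 1.76 ± 0.09. In IQGAP2, F2RL2 and F2R, the thrombin receptor F2R fell by 1.13 ± 0.10. The remaining runs were DENND1B, C1orf53 and NEK7, BCL6, LPP and P3H2, and SLC7A2, PDGFRL and MTUS1. Other tested probe sets gave -0.53 to -0.11 for DENND1B, -0.22 for BCL6 and 0.07 for P3H2, so that these 2 runs rest on the probe set used. So does the run of ELL2, CAST, ERAP1 and ERAP2, as other probe sets of ERAP1 gave -0.60 to -0.38. In the run from TAP2 to PSMB9, another probe set of PSMB9 showed no fall. Neighbours can share overlapping transcripts, which was not tested.

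Of 39 amino acid carriers 12 were higher and 7 lower, with 9 and 10 under cyclic loess. At least 2-fold changed were 2 higher and 3 lower, against 0.592% and 4.18% of all genes. Beside SLC38A4 and SLC1A1, SLC7A14 rose by 1.08 ± 0.05, SLC1A4 rose by 0.94 ± 0.08 and the cationic amino acid transporter SLC7A2 fell by 1.18 ± 0.08. SLC25A43, of the mitochondrial carrier family, read 6.73, 6.84, 7.19 and 7.03 and then 3.75, 3.64, 3.32 and 3.38, the only 2-fold change among 39 tested members. The choline transporter SLC5A7, which supplies acetylcholine synthesis, fell by 1.84 ± 0.11, and the glucose transporter SLC2A1 rose by 0.60 ± 0.04. The cholesterol exporters ABCA1 and ABCG1 parted, by -1.52 ± 0.16 and 1.30 ± 0.09. ATP8B1, a phospholipid flippase, fell by 3.33 ± 0.13, against rises of 0.62 ± 0.05 for ATP8A1 and 0.63 ± 0.10 for ATP8A2. Vacuolar ATPase subunits, which acidify vesicles, had 13 of 20 higher and 0 lower (median 0.186), and 8 and 1 under cyclic loess. Their neuronal subunit ATP6V1G2 went from 7.04, 7.33, 7.39 and 6.95 to 8.39, 8.44, 8.46 and 8.49.

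The list of aldehyde dehydrogenases and retinoid handling was mixed, with 11 of 39 higher and 9 lower (6 and 11 under cyclic loess). Its 3 members at least 2-fold lower were RDH10, the retinoic acid-binding protein CRABP2, which fell by 1.42 ± 0.11, and the receptor RARB, which fell by 1.06 ± 0.08 on the probe set used and gave -0.01 on the other. GPX8, a peroxidase of the endoplasmic reticulum, fell by 3.50 ± 0.12, and MGST1 fell by 1.65 ± 0.11. Of 24 tested NRF2 target genes 5 were higher and 7 lower (3 and 7 under cyclic loess), with NQO1 at -1.15 ± 0.06, HMOX1 at -1.08 ± 0.22 (other probe set -0.17), PIR at 0.79 ± 0.08 and GCLC at 0.43 ± 0.07. Fatty acid oxidation had 5 higher and 3 lower of 24, and 2 and 8 under cyclic loess. Of 23 citric acid cycle genes 8 were higher and 4 lower (3 and 8 under cyclic loess), among them SUCLG2, which fell by 1.02 ± 0.13. The sialyltransferase ST3GAL6 rose by 0.88 ± 0.09 and LPIN1, a phosphatidate phosphatase, rose by 0.63 ± 0.05.

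Among transcription factors, FOXD1 had the largest fall of the forkhead factors, by 5.025 ± 0.092. Its 6 h mean of 3.88 lay near the bottom of the scale, which limits the size of the fall. FOXD1 read 8.61, 8.94, 9.01 and 9.06 untreated and 3.81, 3.87, 3.98 and 3.86 at 6 h. FOXO1 fell by 1.99 ± 0.08 (other probe set -0.55), while 14 of 24 tested forkhead genes were not called. SIX4 fell by 3.12 ± 0.11 and the distal-less factors DLX5 and DLX6 rose by 0.83 ± 0.09 and 0.79 ± 0.09. SOX9 fell by 2.43 ± 0.10 (other probe set -0.94) and SOX7 rose by 0.86 ± 0.10. The nuclear receptors PPARG and NR3C1, the glucocorticoid receptor, gave -1.95 ± 0.09 and -1.44 ± 0.10, and the orphan receptor NR4A3 rose by 0.82 ± 0.07 (other probe set 0.36).

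KLF9, a glucocorticoid-inducible factor, read 7.34, 7.4, 7.5 and 7.19 and then 8.53, 8.46, 8.5 and 8.41, while KLF6 fell by 1.38 ± 0.07 and KLF2 fell by 1.17 ± 0.15. The helix-loop-helix genes TWIST2, BHLHE41 and ID4 gave -2.47 ± 0.12, -2.17 ± 0.13 and -1.77 ± 0.17. In the bZIP list 14 of 39 were higher and 12 lower (9 and 13 under cyclic loess), with JUN at -1.22 ± 0.07, CEBPD at -1.50 ± 0.12, CREB3L1 at -2.08 ± 0.10 and ATF3 at 0.68 ± 0.11 (other probe sets of ATF3 0.06 to 0.09). PRDM1, of the PR domain family, fell by 2.32 ± 0.10. MYCN, a gene amplified in many neuroblastomas, went from 7.08, 7.23, 6.98 and 6.8 to 8.17, 8.46, 8.31 and 8.02, and MYC, high from the start, from 10.1, 10.05, 10.2 and 10.12 to 10.72, 10.76, 10.71 and 10.66. Among cell cycle inhibitors CDKN1A fell by 1.04 ± 0.09 and CDKN1C rose by 0.98 ± 0.06, and of 40 cyclin and kinase genes 11 were higher and 10 lower (9 and 13 under cyclic loess).

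The ZNF zinc finger genes, many of which encode repressors with a KRAB domain that silence transposable elements, shifted as a group by small steps. Members with and without that domain were not counted apart. Of 478 tested members 339 were higher (70.9%) and 10 lower (2.09%), against 36.6% and 16.7% of all genes, and the median difference was 0.321. The array medians of the list were 6.475, 6.605, 6.655 and 6.54 untreated and 6.935, 7, 7.01 and 6.935 at 6 h. All 6 h arrays lay above all untreated arrays by list median. The medians of all tested genes were 7.32, 7.44, 7.465 and 7.39, and then 7.43 in each 6 h array. At least 1.25-fold higher were 239 members (50%), against 16.4% of all genes.

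The shift was present at each level. In the 4 bins of untreated level, from low to high, 40.7%, 80.7%, 78.1% and 52.9% of the ZNF genes were higher, where all genes gave 22.9%, 46.6%, 43.2% and 33.7%. For 284 members (59.4%) every 6 h array lay above every untreated one, which 30.9% of all genes did. Under cyclic loess 261 were higher and 23 lower, with a median of 0.214 where all genes had 0.00968. ZSCAN18, the only member to rise 2-fold, rose by 1.17 ± 0.06, but its 3 other probe sets gave 0.06 to 0.25. ZNF610 rose by 1.00 ± 0.08 and ZNF667 rose by 0.89 ± 0.10, while ZNF521, a factor of progenitor cells, fell by 1.10 ± 0.11. Zinc finger genes share sequence among close relatives, so that values of single members are less certain than the count.

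**Figure D5:**
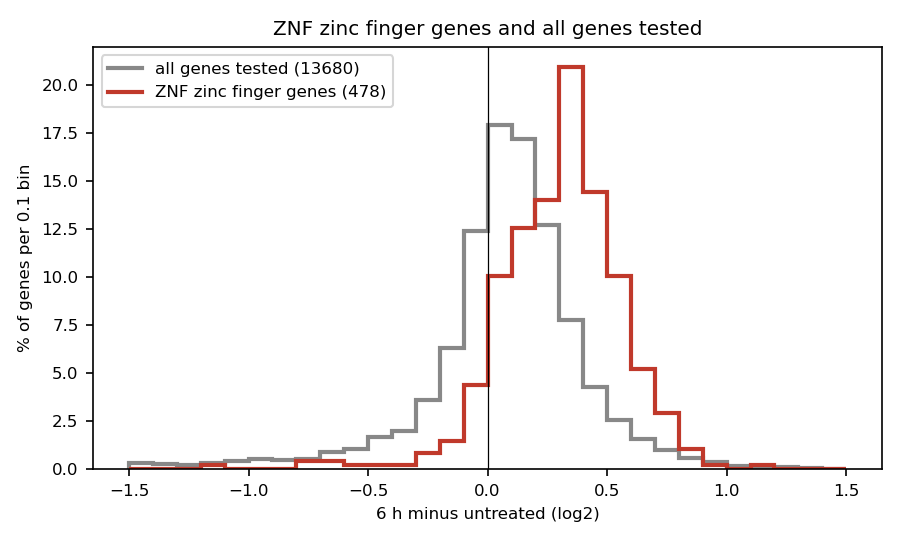
Lines show the percentage of genes in each bin of 0.1 of the 6 h minus untreated difference (log2), for the 478 tested ZNF zinc finger genes (red) and for all 13680 genes (grey). The red line is displaced to the right of the grey one, with medians of 0.321 and 0.0925, and has few genes below 0. Genes beyond the ends of the x axis are not drawn.

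Spliceosome and ribosome genes changed little in size. Of 73 spliceosome genes 23 were higher and 4 lower, of 76 mitochondrial ribosomal proteins 24 and 5, and of 39 ribosome biogenesis factors 6 and 5. Under cyclic loess these counts were 10 and 9, 12 and 13, and 3 and 15, so that their direction follows the scaling. None of the genes in these 3 lists was 2-fold changed. Aminoacyl-tRNA synthetases had 18 of 35 higher and 2 lower, with CARS1 at 0.41 ± 0.05 the largest rise. F-box and cullin proteins had 52 of 109 higher and 12 lower, mediator and TFIID subunits 23 of 51 and 3. With cyclic loess the synthetases had 12 and 7, the F-box list 29 and 15 and the mediator list 9 and 7. The neuronal elongation factor EEF1A2 rose by 0.79 ± 0.05. Vesicle GTPases of neurons, RAB3A and RAB3C, rose by 0.86 ± 0.06 and 0.84 ± 0.06, and RAB31 fell by 1.04 ± 0.07.

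Receptors that risperidone is known to bind did not share a direction. DRD2, the dopamine D2 receptor, read 4.85, 4.64, 4.48 and 4.65 untreated and 5.51, 5.44, 5.49 and 5.55 at 6 h and rose by 0.84 ± 0.07. ADRA2C rose by 0.88 ± 0.06. HRH1, the histamine H1 receptor, went from 6.18, 6.65, 6.88 and 6.4 to 4.6, 4.4, 4.45 and 4.34, and fell by 2.08 ± 0.12. HTR2B was not called (-0.15 ± 0.12), nor were ADRA1A (0.04 ± 0.06) and HTR7 (0.10 ± 0.08), and HTR2A was too dim to be tested. Common reference genes moved little, with no call for GAPDH (-0.03 ± 0.04). TBP rose by 0.25 ± 0.05, HPRT1 rose by 0.17 ± 0.05 and ACTB fell by 0.21 ± 0.07, the last not called without untreated replicate 3 (difference -0.174).

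The 24 h and 48 h groups share the untreated arrays, so their differences are given side by side with no test. In that order of time, with 6 h first, HTR1E differed from untreated by 2.70, 2.91 and 3.29. For KRT18 the values were -4.07, -3.55 and -3.62, for CAV1 -4.04, -3.69 and -3.94, and for KLF9 1.12, 1.25 and 1.08. PSMB8 gave -2.92, -2.75 and -2.67, and MAP3K5 1.64, 1.44 and 1.32.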

How the data were processed

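Values are log2 expression per probe set that the authors made by robust multi-array averaging (RMA), per the submitters' processing notes. The software is not given in the sources used here. RMA equalises the distributions between arrays, so a change in total RNA cannot be seen. Of 49386 probe sets 93 were controls, and the platform annotation gave 1 symbol for 45253, several for 1327 and none for 2713. Of the single-symbol ones, 45172 matched RefSeq by Entrez identifier, with 0 symbols changed. The lowest 25% of genes by mean (4559) were left out as dim. Values ran from 2.57 to 13.98, and array medians from 4.5 to 4.62.

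A linear model with 1 mean for each of the 4 groups (n = 4 arrays, which limits the precision) was fitted to all 16 arrays by lmFit, followed by eBayes, in limma 3.58.1 under R 4.3.3, and tests were two-sided. The threshold was an adjusted p of 0.05. Gene lists were described by counts and medians with no test. The procedure was checked on data of known answer. The arrays' replicate numbers did not pair them: same-numbered arrays deviated together with correlations of -0.05, -0.01, 0.02 and 0.13.

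The members and lists were chosen with earlier results of these data known. Named genes are the 25 largest rises and falls past the threshold with arrays not overlapping, at most 3 in each direction of a list, the cell type markers and a fixed set of drug targets and reference genes; runs of neighbours follow the order of RefSeq genes. Some genes that this rule names are left out for length. Of 95 lists, 1 (septins) was not analysed here, and some are not reported here. Alternatives were other summaries of probe sets, filters, normalizations, fits and thresholds, and each array left out in turn.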

Additional observations from a re-analysis of the deposited data

Results flagged for a closer look

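Within the groups of 4 arrays of the genes named, 20 of 488 sets held a highest or lowest array set apart from the nearest of the other three (gap over range above Dixon's 95% critical value), where chance gives about 1 in 20. Set apart, with the range of the other arrays in brackets, were C7 at 12.8 in 6 h replicate 1 (12.73 to 12.74), CASP4 at 6.03 in untreated replicate 3 (5.51 to 5.54), CNTN1 at 9.19 in untreated replicate 2 (8.89 to 8.92) and EPHA2 at 4.73 in 6 h replicate 2 (5.04 to 5.06). Further such arrays were ERBB4 at 4.82 in untreated replicate 4 (5.28 to 5.33), GAPDH at 12.93 in untreated replicate 3 (13.07 to 13.08), GFAP at 3.84 in untreated replicate 2 (3.54 to 3.59) and GNAZ at 8.32 in untreated replicate 1 (8.49 to 8.52). Others were IGF2BP2 at 4.9 in 6 h replicate 1 (4.21 to 4.3), IGFBP3 at 6.02 in untreated replicate 4 (6.67 to 6.79), IGFBP6 at 7.54 in untreated replicate 2 (7.33 to 7.36) and LGALS1 at 10.88 in 6 h replicate 3 (11.05 to 11.08). The same held for MGST1 at 4.16 in 6 h replicate 2 (3.82 to 3.85), PMEL at 4.29 in 6 h replicate 2 (4.11 to 4.12), PRDM1 at 6.25 in untreated replicate 1 (5.86 to 5.88) and PSMB8 at 4.6 in 6 h replicate 3 (4.99 to 5.04). Also apart were RAB3A at 7.15 in 6 h replicate 1 (7.32 to 7.35), SPAG4 at 6.59 in 6 h replicate 4 (6.3 to 6.32), SYT17 at 5.72 in untreated replicate 2 (5.05 to 5.11) and VEGFB at 8.87 in untreated replicate 3 (8.57 to 8.62). Only the contrast of 6 h against untreated was searched for signals, and the 24 h and 48 h differences given above were not tested.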

How the results depend on the processing

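Over the 20 alternatives and the genes named, 4642 of 4706 values kept their direction and their side of the threshold, 46 kept the direction without the call and 15 changed sign. Testing every probe set by itself gave 14730 called, 9812 higher and 4918 lower probe sets, of which 174 were at least 2-fold higher, 1164 at least 2-fold lower and 178 at least 8-fold lower, since more features were tested. Cyclic loess gave 3151 genes higher and 3223 lower, with 59 lists holding more lower and 25 more higher members, against 24 and 63; the cause was not tested. With the lowest 50% of genes left out, fewer genes were tested, 302 of them at least 2-fold and 59 at least 8-fold lower. Averaging the probe sets of each gene left 39 genes at least 8-fold lower. Leaving out each array in turn gave 6643 to 7095 called genes, 4377 to 4965 higher and 2129 to 2381 lower, with 75 to 94 at least 2-fold higher, 554 to 595 at least 2-fold lower and 92 to 108 at least 8-fold lower. Lists with more lower members then numbered 23 to 29 and those with more higher members 58 to 66, and the actin 3′ to 5′ difference was 0.368 to 0.521.

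The replicate number as a block gave 7325 called genes, 5027 higher and 2298 lower, 7119 of them called in the same direction without it, and 1 of 4 arrays correlated best with its own number. No call of a gene named here was changed by the block. Under cyclic loess the medians of 32 of 94 lists changed sign. Those whose first value lay further from 0 than the SD between arrays were JAK, STAT and SOCS genes (-0.0257), citric acid cycle enzymes (-0.0191), histone methyltransferases and demethylases (-0.0255), mitochondrial ribosomal proteins (-0.0149), ubiquitin-specific proteases (-0.0292) and RAB GTPases (-0.0189). Nearer 0 at first were interleukin receptors (-0.0635), tetraspanins (-0.0286), the retinoid list (-0.0248), fatty acid oxidation (-0.0753), NRF2 targets (-0.0807), ribosome biogenesis (-0.0823), cyclins and their kinases (-0.0494), bZIP factors (-0.0195), TRIM proteins (-0.0165), BCL-2 family and caspases (-0.0336) and 16 further lists. That of ETS factors was -0.015 with no filter, and that of lipid mediator and related receptors 0.205 with the lowest 50% left out. By a probe set of its own, a sign changed for P3H2 (0.0725), PSMB9 (0.105), SEMA6D (-0.065), PDGFRA (-0.118) and PDGFRB (0.218). Near 0, PDGFRB was 0.137 by the mean of probe sets, 0.025 with array medians subtracted and -0.0333 to 0.0342 with an array left out, PDGFRA -0.0304 by cyclic loess and -0.015 to 0.0983 with an array left out, ADRA1A -0.0252 and -0.0225 to 0.0775, and GAPDH 0.0025 with array medians subtracted. Signals near the bottom of the scale limit falls of dim genes.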

Other observations

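Clustered protocadherins, cell surface proteins that give single neurons an identity, were higher or not called. Of 23 tested members 13 were higher (56.5%) and 0 lower, against 36.6% and 16.7% of all genes, with a median of 0.21, and 8 were higher and 0 lower under cyclic loess. PCDHB14 rose by 0.65 ± 0.07, PCDHB4 rose by 0.64 ± 0.10 and PCDHB3 rose by 0.61 ± 0.11. These genes share much sequence, so that the values of single members are uncertain. Of 53 on the array, the others were too dim to be tested.

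Of 113 tested long non-coding and antisense transcripts 38 were higher (33.6%) and 6 lower (5.31%), with a median of 0.0925, the same as that of all genes, and 27 and 9 under cyclic loess. The antisense transcript HAND2-AS1 rose by 0.78 ± 0.09 from 8.86, 8.87, 8.63 and 8.62 to 9.54, 9.47, 9.52 and 9.57. The nuclear RNA MALAT1 fell by 0.70 ± 0.17 and MIR22HG fell by 0.62 ± 0.10. Peroxins and mitochondrial import proteins had 18 of 36 higher and 3 lower (11 and 6 under cyclic loess), with the peroxisomal import receptor PEX7 at 0.66 ± 0.06. The histone demethylase genes KDM3A and KDM7A rose by 0.71 ± 0.04 and 0.61 ± 0.06, in a list of 59 with 24 higher and 6 lower (14 and 11 under cyclic loess).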
